A study of Homo sapiens with 2 samples.

Results

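The genes described here are neighbours on the long arm of human chromosome 22, in band 22q12, on both sides of NF2, from LRP5L towards the centromere to SFI1 towards the telomere. They were chosen by name, 57 in all, because the difference between the 2 arrays of this study had been seen to run in one direction along the stretch. The differences below therefore describe the stretch and carry no test, and they cannot support the choice. A gene was measured by its brightest probe set (a group of short probes against 1 transcript) among those with a single gene symbol, and 55 of the 57 had one. TFIP11 and SEC14L2 were not analysed here. Across the array 19775 genes were named in this way.

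Expression was measured in 2 stable populations of Panc1, a cell line from a human pancreatic ductal adenocarcinoma, with 1 Affymetrix array each. The Panc1/syk-wt population carried introduced wild-type SYK, which encodes a cytoplasmic tyrosine kinase of immune receptor signalling, and the Panc1/mock population with the vector alone. Both were kept under hygromycin and harvested before confluence, with no other treatment. What drives SYK in the vector was not stated in the labels. With 1 array per population no value has a replicate error, and population, RNA preparation and array cannot be told apart.

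A stretch of neighbouring genes is not a pathway. Its members share a place on a chromosome, and with it the DNA copy number and the surrounding chromatin, while their products work in unrelated processes. Band 22q12 is known in cancer for NF2, whose product merlin links the membrane to the cytoskeleton and restrains growth through the Hippo pathway, for the checkpoint kinase gene CHEK2, and for EWSR1, the gene broken in Ewing sarcoma. Neither DNA copy number nor chromatin was measured in these samples.

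Values are log2 intensities, so a difference of 1 is 2-fold. The array medians were 4.24 (syk) and 4.26 (mock), and the median difference over the 18 hybridisation controls was 0.01. The 3' minus 5' difference of the ACTB control probe sets was 2.37 on the syk array and 1.95 on the mock array, and that of GAPDH was 0.32 and 0.19. This sign of RNA quality moved with the contrast, and its part in the results was not tested. By the brightest of its 4 probe sets, SYK itself read 4.73 on the syk array and 4.27 on the mock array. Both values were at or below 4.77, the highest signal of 27 bacterial control probe sets, which serves below as a level for dim signal. The other SYK probe sets were lower on the syk array, with differences from -0.27 to -0.07. The SYK signal thus gave no clear check of the labels. Of 7 epithelial markers, 6 read above 4.77 on the syk array and 7 on the mock array, with summed levels of 60.8 and 65.9. The lowest level of any of them was 3.47 on the syk array and 6.34 on the mock array. All 3 endothelial and all 3 acinar markers with a probe set were at or below 4.77 on both arrays. On each array, so were 3 of 4 blood and 4 of 5 fibroblast markers.

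Most of the 22q12 genes read higher on the array labelled syk. Of the 49 genes whose mean over both arrays reached 4.25, the 50th percentile of all probe sets, 38 lay above 0 and 11 below it, and the median log2 difference was 0.46. Over all 12814 genes past the same filter 50.8% lay above 0 and the median was 0.01. At least 2-fold higher were 5 of the 49 genes (3.61% of all genes past the filter), or 4 with values floored at 4.77, and 0 were at least 2-fold lower (3.65% of all genes). At 1.5-fold, 22 genes were higher (12.2% of all genes), 0 were lower (10.5% of all genes) and 27 lay between. These shares are printed for reading the counts, and nothing is drawn from them, because this contrast chose the genes. Without the filter 39 of 55 genes lay above 0 (51.6% of all 19775 genes), with a median of 0.34. Among the genes of the list with both values above 4.77, the differences ran from -0.40 for GAS2L1 to 1.31 for SMTN.

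**Figure D1:**
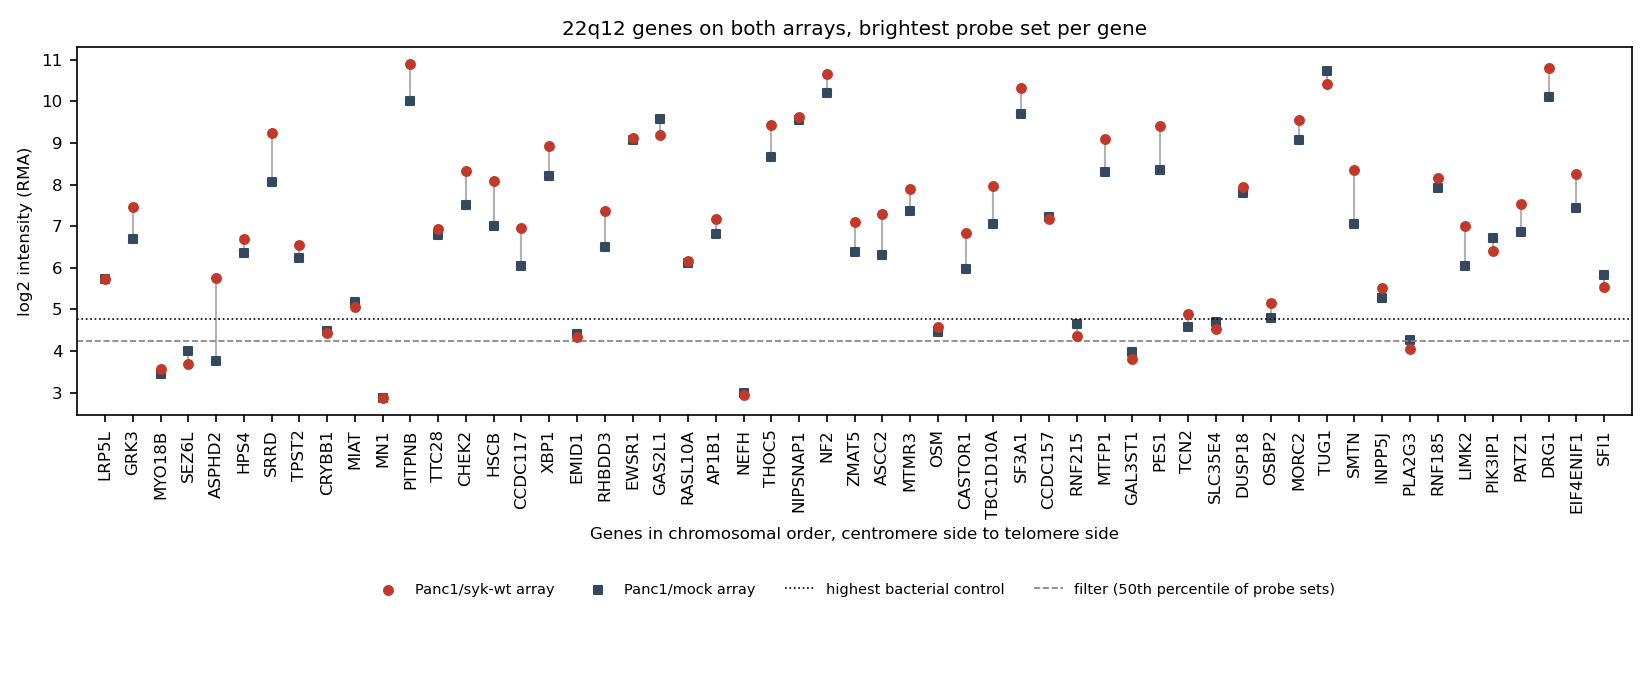
Log2 intensity of the 55 measured 22q12 genes in chromosomal order, with the syk array as circles and the mock array as squares, and dashed and dotted lines at the filter (4.25) and at the highest bacterial control (4.77). Most of the bright genes have the circle above the square, and the 6 genes below the filter have both marks close together.

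All 8 measured genes of RNA processing, ribosome assembly and translation were at least 1.5-fold higher on the syk array, with a median log2 difference of 0.80. The share over all genes past the filter was 12.2%, which also belongs beside the counts of the other groups below. All 8 were bright, with a mean of 6.74 or more, and among genes of the stretch at or above 6.59, 18 of 30 were that much higher. Whether role or brightness goes with the difference was not tested. PES1, the pescadillo protein needed for making the large ribosomal subunit, read 9.41 on the syk array and 8.34 on the mock array, a 2.10-fold difference. SRRD, whose product carries an SRR1 domain and was placed in this group although its role is not well known, read 9.25 and 8.05 in the same order, 2.29-fold higher, and its probe sets differed by 1.19 and 1.40. EIF4ENIF1, which carries the cap-binding protein eIF4E into the nucleus, read 8.26 on the syk array against 7.44 on the mock array. The mRNA export subunit THOC5 read 9.44 on the syk array and 8.66 on the mock array. For both of these genes, and for PES1, a dimmer probe set below the filter differed by far less, at 0.04 for EIF4ENIF1, 0.02 for THOC5 and 0.10 for PES1.

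The splicing factor SF3A1, a part of the complex that recognises the branch point, was bright at 10.3 on the syk array and 9.69 on the mock array, and its 4 probe sets lay between 0.51 and 0.84. ZMAT5, a protein of the minor spliceosome, read 7.10 on the syk array and 6.39 on the mock array. ASCC2, a ubiquitin-binding subunit of a complex that acts in transcription and DNA repair, read 7.29 and 6.31, and the GTP-binding protein DRG1, which acts with translating ribosomes, read 10.8 and 10.1, again with the syk array first. Within the group the differences thus ran from 0.62 for SF3A1 to 1.19 for SRRD.

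Genes of growth suppression, DNA damage and chromatin were also on the higher side, by less. All 5 measured members lay above 0, 2 of them at least 1.5-fold, with a median of 0.49. NF2 was among the brightest genes of the stretch, with 10.7 on the syk array and 10.2 on the mock array, a 1.37-fold difference. All 8 NF2 probe sets lay above 0, between 0.05 and 1.12, so the size of its difference depended on the probe set and its sign did not. CHEK2, the kinase that signals DNA double-strand breaks, read 8.31 on the syk array and 7.52 on the mock array by its only probe set, 1.73-fold higher. The zinc-finger transcription factor PATZ1 read 7.53 on the syk array and 6.86 on the mock array, but its 6 probe sets ran from -0.28 to 0.79. MORC2, an ATPase of chromatin silencing, read 9.56 on the syk array and 9.06 on the mock array, with all 3 probe sets between 0.45 and 0.49. EWSR1, an RNA-binding protein, was nearly level by its brightest probe set (9.11 on the syk array and 9.06 on the mock array), while another of its 4 probe sets, below the filter, differed by 0.81. The coactivator MN1 lay below the filter, at 2.87 on both arrays.

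Of the 3 mitochondrial genes, 2 were at least 1.5-fold higher. HSCB, a co-chaperone of iron-sulfur cluster assembly, read 8.09 on the syk array and 7.01 on the mock array, 2.12-fold higher by a single probe set of the kind that may cross-hybridise (its name ends in _x_at). MTFP1, a protein of mitochondrial fission, read 9.10 on the syk array and 8.29 on the mock array. NIPSNAP1, a mitochondrial matrix protein, was bright and level, at 9.63 on the syk array and 9.56 on the mock array.

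Genes of membrane traffic, lipids and phosphoinositides lay above 0 in 8 of 9 measured cases, 3 of them at least 1.5-fold, with a median of 0.37. PITPNB, which transfers phosphatidylinositol between membranes, was the brightest of them, with 10.9 on the syk array and 10.0 on the mock array. TBC1D10A, an activator of Rab GTP hydrolysis, read 7.97 on the syk array and 7.06 on the mock array by its brightest probe set, while its other one, below the filter, differed by -0.19. CASTOR1, the arginine sensor upstream of mTORC1, read 6.83 on the syk array and 5.98 on the mock array, and both its probe sets were higher. The differences of MTMR3, a phosphoinositide phosphatase (0.53), OSBP2, an oxysterol-binding protein (0.37), AP1B1, an adaptor subunit of clathrin coats (0.36), HPS4, a subunit of a complex for lysosome-related organelles (0.34), and the inositol phosphatase INPP5J (0.23) were under 1.5-fold. Against the others, PIK3IP1, an inhibitor of PI 3-kinase, read 6.39 on the syk array and 6.71 on the mock array, and its 3 probe sets all lay below 0. The secreted phospholipase PLA2G3 was below the filter, at 4.04 on the syk array and 4.27 on the mock array.

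The cytoskeleton and spindle genes went both ways. SMTN, the actin-binding protein smoothelin, had the largest difference among genes of the list with both values above 4.77, with 8.35 on the syk array and 7.04 on the mock array, 2.47-fold, although 1 of its 3 probe sets differed by -0.05. LIMK2, the kinase that inactivates cofilin, read 7.01 on the syk array and 6.04 on the mock array, with 3 probe sets between 0.24 and 0.97. TTC28 differed by 0.14, with 1 of its 3 probe sets at -0.33. GAS2L1, which joins actin filaments to microtubules, was lower on the syk array (9.18, against 9.58 on the mock array), as were its 2 other probe sets. SFI1, a centrin-binding protein of the centrosome and the last gene of the stretch, read 5.53 on the syk array and 5.84 on the mock array, and its 4 probe sets were evenly split in sign. The neurofilament NEFH and the myosin MYO18B lay below the filter.

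Among the stress, ubiquitin and signalling enzymes 6 of 7 lay above 0 and 3 were at least 1.5-fold higher. XBP1, the transcription factor of the unfolded protein response, read 8.94 on the syk array and 8.21 on the mock array, but its other probe set, below the filter, differed by -0.53. RHBDD3, a rhomboid-like membrane protein, read 7.37 on the syk array and 6.49 on the mock array. GRK3, a kinase that desensitises G protein-coupled receptors, read 7.45 on the syk array and 6.68 on the mock array, and its 3 probe sets lay between 0.77 and 1.21. The ubiquitin ligase RNF185 (0.24), the dual-specificity phosphatase DUSP18 (0.14) and the Ras-like RASL10A (0.04) differed little. RNF215 was dim on both arrays, at 4.37 on the syk array and 4.65 on the mock array.

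The remaining protein-coding genes are mostly tissue-restricted or poorly known, and many were dim. ASPHD2, which carries an aspartyl hydroxylase domain, read 5.76 on the syk array and 3.76 on the mock array, and its other probe set differed by 1.42. The mock value lies below 4.77, so its fold is given as at least 1.99. CCDC117 read 6.95 on the syk array and 6.05 on the mock array, with 0.12 in its dimmer probe set, and the sulfotransferase TPST2 differed by 0.33. The crystallin CRYBB1, EMID1, the cytokine gene OSM, the putative carrier SLC35E4 and RNF215 had both values at or below 4.77, and the cobalamin carrier gene TCN2 had its mock value there, at 4.58 against 4.88 on the syk array. LRP5L (5.73 on the syk array and 5.74 on the mock array) and CCDC157 (7.17 and 7.22, in the same order) were level, while SEZ6L and GAL3ST1 lay below the filter.

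Both long noncoding RNAs of the list lay below 0. TUG1, a widely expressed transcript, was bright, with 10.4 on the syk array and 10.7 on the mock array, and all 4 of its probe sets past the filter lay below 0. MIAT read 5.07 on the syk array and 5.18 on the mock array.

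**Figure D2:**
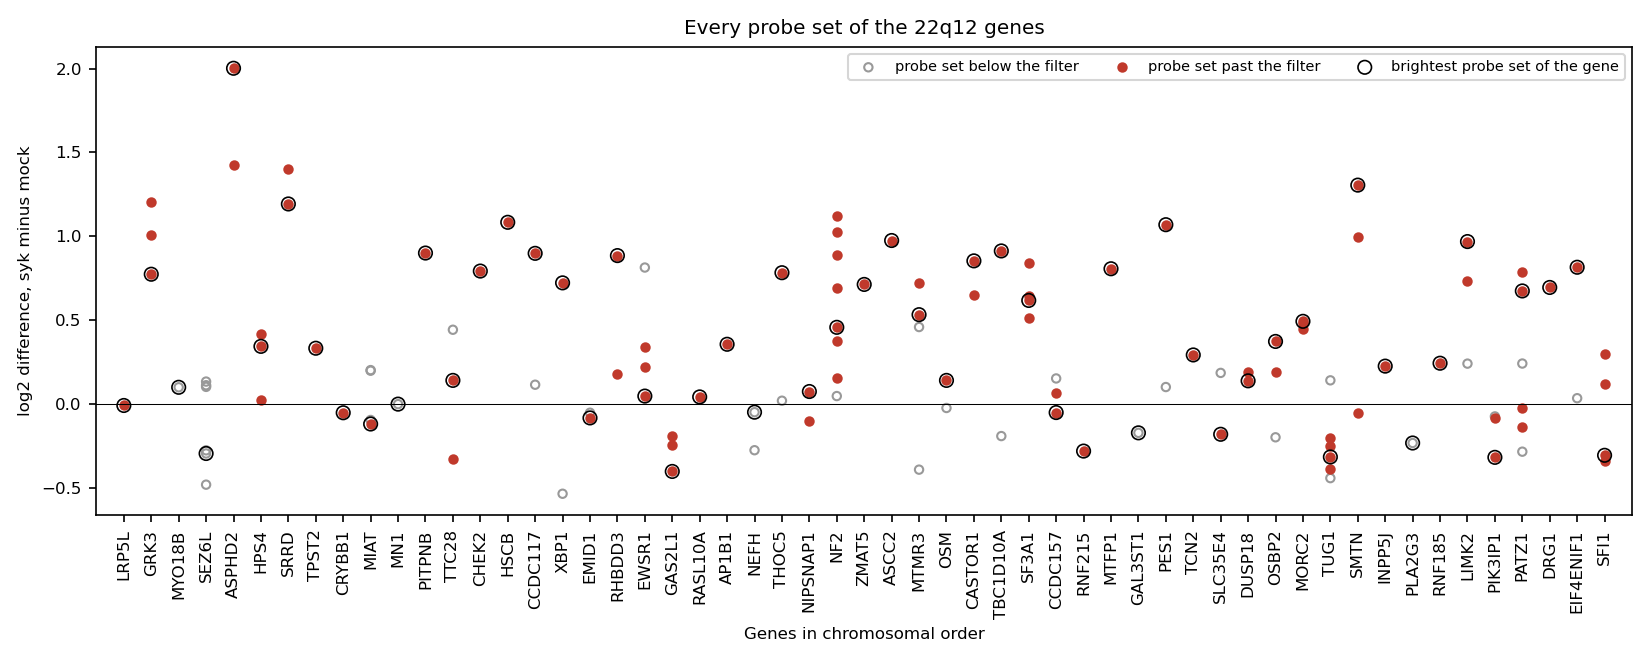
Log2 difference, syk minus mock, of each of the 128 probe sets of the 22q12 genes in chromosomal order. Filled points are the 91 probe sets past the filter, of which 68 lie above 0, open points lie below it, and rings mark the brightest probe set of each gene.

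Of the 91 probe sets of these genes past the filter, 68 (74.7%) lay above 0, against 49.6% of the 23066 such probe sets of all genes. The 42 that were not the brightest of their gene had a median of 0.32, with 30 above 0. Such probe sets of all other genes had a median of -0.01, with 48.0% above 0. Because this contrast chose the genes, nothing is drawn from these shares. Past the filter 23 genes had more than 1 probe set, and 14 of them had all of them above 0, 3 had all below 0 and 6 were mixed. Probe sets of a gene share RNA and array and are no replicates. Over all genes, probe sets of 1 gene differed from each other with a pooled SD of 0.35.

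Genes of the stretch above 0 were found mainly among those with bright signal. Among the 30 genes of the stretch with a mean at or above 6.59, the 75th percentile of all probe sets, 27 lay above 0, 18 were at least 1.5-fold higher and the median was 0.70. Among other genes as bright, 52.8% lay above 0 and 12.3% were at least 1.5-fold higher. Within the 30, those with a mean under 9 had 19 of 20 above 0, 14 of them at least 1.5-fold higher (13.5% of other genes in that band). The brightest, at 9 or more, had 8 of 10 above 0, 4 of them at least 1.5-fold higher (10.2% of other genes). The 12 genes with a mean between 4.77 and 6.59 had 8 above 0 and 3 at least 1.5-fold higher (12.8% of other genes in that band). Among the 7 genes between 4.25 and 4.77 there were 3 above 0, and among the 6 below the filter 1, so the dim genes of the stretch lay on both sides of 0. The filter uses the mean of both arrays, which a gene can pass through the array where it is high. Past the filter, 2 genes of the list, ASPHD2 and TCN2, had 1 value above 4.77 and 1 at or below it.

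**Figure D3:**
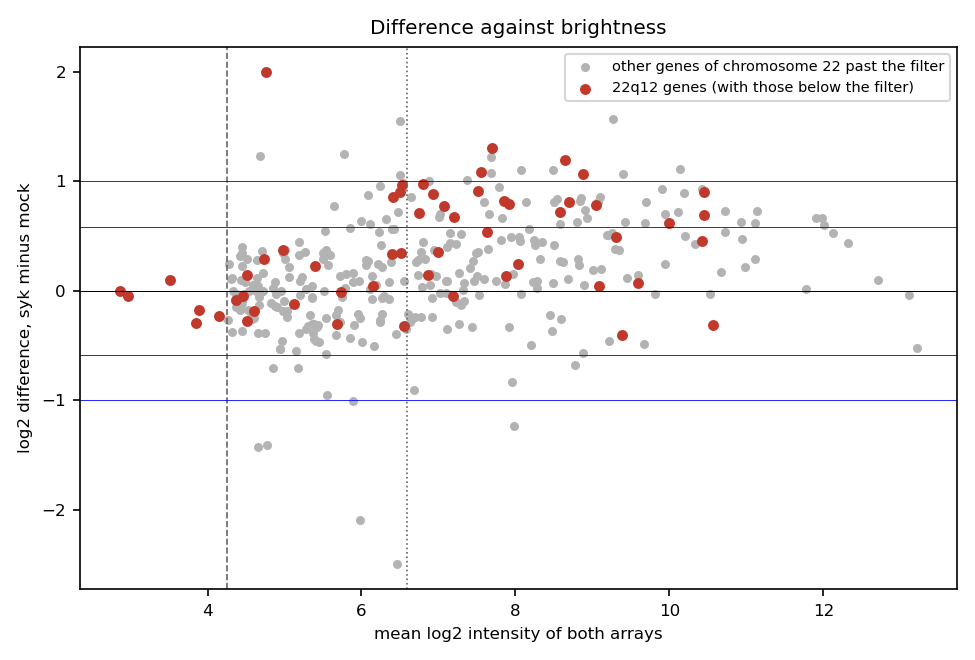
Log2 difference, syk minus mock, against mean log2 intensity for the 22q12 genes and for the other genes of chromosome 22, with horizontal lines at 1.5-fold and 2-fold in both directions. The 30 points of the stretch to the right of the dotted line at 6.59 lie above 0 except for 3, and the dim genes scatter about 0.

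Every part of the stretch had a median above 0, and the highest was at its centromere end. In 4 consecutive blocks of the 49 genes the medians were 0.77 (LRP5L to CCDC117), 0.41 (XBP1 to ASCC2), 0.41 (MTMR3 to DUSP18) and 0.43 (OSBP2 to SFI1). Among genes of the list past the filter, the longest run above 0 held 12, with NF2 among them, and went from RASL10A to SF3A1. Measured genes outside the list were passed over in this count, among them CABP7 (-1.41). The run also includes OSM, which had both values at or below 4.77 and a difference of 0 with values floored there. In each block 9 or 10 genes lay above 0.

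Another 23 genes with a named probe set lie between LRP5L and SFI1 and were not in the list, and 10 of them passed the filter. Of these 10, 7 lay above 0 and the median was 0.42. At 1.5-fold, 4 were higher (12.2% of all genes past the filter) and 1 was lower (10.5%). Without the filter the median of the 23 was 0.16, with 15 above 0 and 4 at least 1.5-fold higher (8.69% of all genes). TTC28-AS1, an antisense RNA, read 7.28 on the syk array and 5.73 on the mock array by its brightest probe set, the selenoprotein gene SELENOM 9.48 and 8.66 in that order, and UQCR10, a subunit of respiratory complex III, 12.3 and 11.7. CABP7, a calcium-binding protein, went the other way, with 4.07 on the syk array and 5.48 on the mock array. Its syk value lies below 4.77 and below the filter of 4.25, so CABP7 passed through the mock array. The cytokine gene LIF, a neighbour of OSM, read 8.75 on the syk array and 8.48 on the mock array.

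LRP5L (-0.01) and SFI1 (-0.31) are the outermost genes of the list. The 5 nearest measured genes on the centromere side were IGLL3P (-0.20), CRYBB2 (0.09), CRYBB3 (0.00), KIAA1671 (-0.57) and LRRC75B (-0.40). The 5 nearest on the telomere side were PRR14L (0.29), DEPDC5 (0.13), YWHAH (0.49), SLC5A1 (0.29) and LOC339666 (0.05). Past the filter, the 30 nearest genes had a median of 0.01 on the centromere side and 0.15 on the telomere side. In the same order, 5 and 4 of them were at least 1.5-fold higher (12.2% of all genes past the filter). At least 1.5-fold lower were 1 and 2 (10.5% of all genes).

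**Figure D4:**
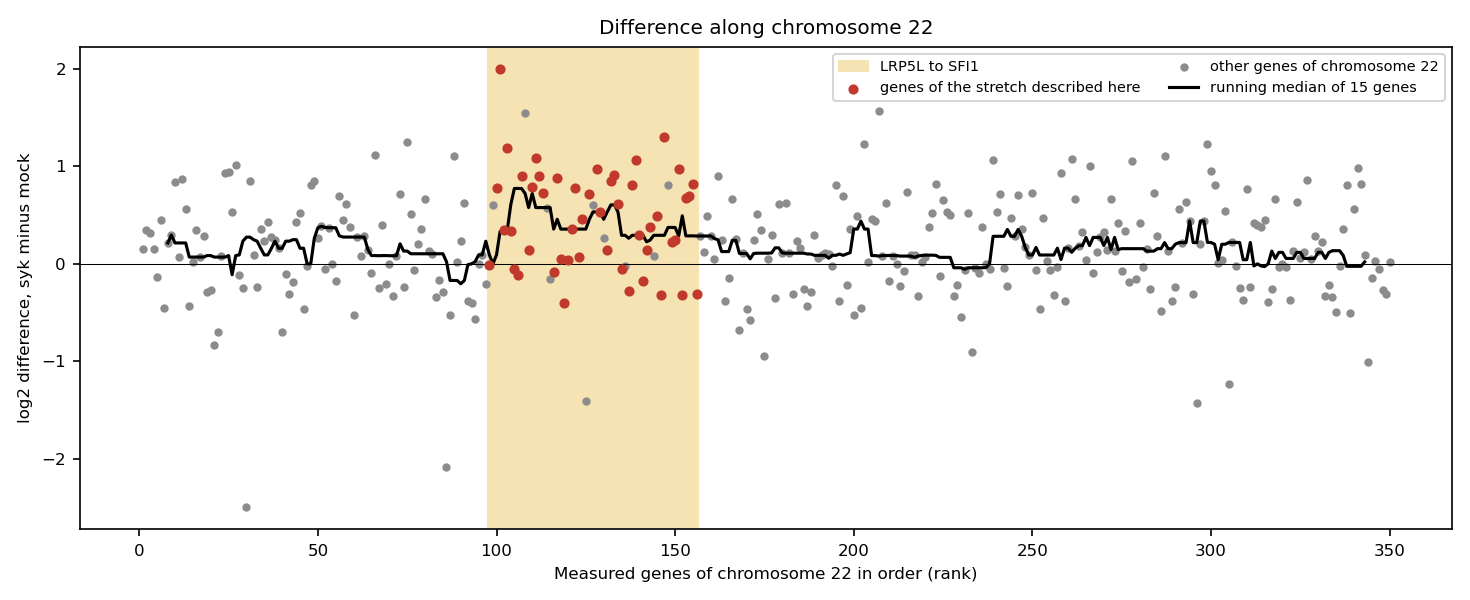
Log2 difference, syk minus mock, of the 350 measured genes of chromosome 22 in order, with the running median of 15 genes as a line and the stretch from LRP5L to SFI1 shaded. The line reaches 0.77 within the stretch, and its highest values elsewhere are 0.39 on the centromere side and 0.44 on the telomere side.

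The direction was not confined to the stretch. Over the 301 other genes of chromosome 22 past the filter the median was 0.12, with 62.5% above 0. At 1.5-fold, 55 genes were higher (12.2% of all genes past the filter) and 12 lower (10.5%). With bright genes alone (mean at or above 6.59) the median of the other chromosome 22 genes was 0.32 over 150 genes, 78.0% of them above 0, and the 30 nearest bright genes had medians of 0.41 on the centromere side and 0.39 on the telomere side. Bright genes off chromosome 22 had a median of 0.03. The 30 bright genes of the stretch, at 0.70, lay above the bright genes around them in these 2 arrays, and the difference between them has no test.

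Set against whole chromosomes, chromosome 22 had the fifth highest of 23 medians past the filter, at 0.14 over 350 genes, after chromosomes 8 (0.19), 4 (0.18), 13 (0.16) and 14 (0.15). With bright genes alone chromosome 22 had the highest median, 0.38 over 180 genes, and chromosome 8 came next at 0.22. Among the chromosomes lowest in the first order were 10 (-0.14) and 1 (-0.10).

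**Figure D5:**
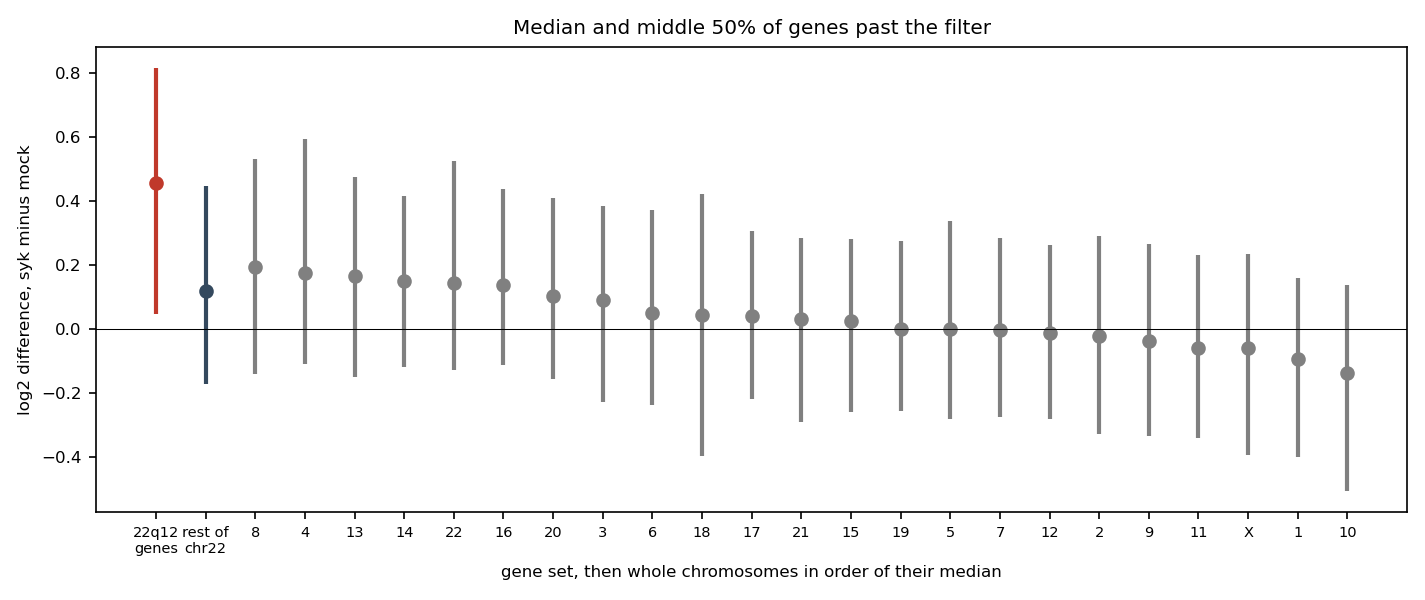
Median (point) and middle 50% (bar) of the log2 difference, syk minus mock, for genes past the filter in the 22q12 stretch, the rest of chromosome 22 and 23 whole chromosomes. The 49 genes of the stretch have a median of 0.46, and the chromosome medians run from 0.19 to -0.14.

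Several genes of the stretch start head to head, transcribed away from each other from starts at most 1000 bases apart, and such pairs share the DNA between them. Starts were available for 42 of the 57 genes of the list, so pairs involving the rest were not counted. By the RefSeq starts (GRCh38.p14) there were 7 pairs with both genes past the filter and at least 1 gene of the list. Both partners lay above 0 in 5 of the 7 pairs, against 43.6% of 849 other pairs. The partners had the same sign in 5 of 7, against 64.1% of the others. Because the genes were chosen by this contrast, pairs that hold them lie above 0 more often whatever DNA they share. The shares are printed for reading the counts, and nothing about shared DNA is drawn from them. The sequences of 4 of these gaps are shown because the partners' differences lay close together in some pairs and far apart in others. They are followed by the bases before UQCR10 and TUG1, which lie in the gaps to ZMAT5 and MORC2. Next come those before NF2, at the centre of the stretch, and before DRG1, a gene with 1 start and a raised value. All are from RefSeq, GRCh38.p14, forward strand, 5′ to 3′, and capitals mark matches, on either strand, to the GC box, the CCAAT box, the ETS motif and the E-box, whose letters are given after the pairs.
CHEK2 to HSCB, chr22:28741821-28742031: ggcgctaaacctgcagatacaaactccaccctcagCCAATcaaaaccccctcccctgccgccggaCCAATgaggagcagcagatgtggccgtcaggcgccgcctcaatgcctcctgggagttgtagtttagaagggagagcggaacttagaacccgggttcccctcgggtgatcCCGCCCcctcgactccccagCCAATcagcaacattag
PITPNB to TTC28-AS1, chr22:27919257-27919375: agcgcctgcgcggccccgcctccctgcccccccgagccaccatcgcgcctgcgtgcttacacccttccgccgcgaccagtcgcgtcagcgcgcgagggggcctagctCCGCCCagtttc
RHBDD3 to EWSR1, chr22:29268164-29268267: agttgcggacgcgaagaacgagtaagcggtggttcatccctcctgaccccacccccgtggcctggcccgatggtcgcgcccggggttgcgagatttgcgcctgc
SF3A1 to CCDC157, chr22:30356895-30357006: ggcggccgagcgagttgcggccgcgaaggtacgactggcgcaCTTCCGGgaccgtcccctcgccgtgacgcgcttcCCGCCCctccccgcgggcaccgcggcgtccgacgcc
UQCR10 upstream, chr22:29767119-29767368: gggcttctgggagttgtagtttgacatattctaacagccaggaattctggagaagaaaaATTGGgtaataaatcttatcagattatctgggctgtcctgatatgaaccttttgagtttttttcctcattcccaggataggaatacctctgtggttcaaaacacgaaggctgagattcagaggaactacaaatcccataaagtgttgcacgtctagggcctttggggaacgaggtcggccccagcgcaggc
TUG1 upstream, chr22:30969015-30969264: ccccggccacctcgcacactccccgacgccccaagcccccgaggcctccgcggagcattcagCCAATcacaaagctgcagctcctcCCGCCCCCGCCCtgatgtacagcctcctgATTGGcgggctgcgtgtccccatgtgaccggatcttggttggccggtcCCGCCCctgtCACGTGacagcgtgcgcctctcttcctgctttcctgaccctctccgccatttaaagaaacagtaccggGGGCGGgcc
NF2 upstream, chr22:29603383-29603632: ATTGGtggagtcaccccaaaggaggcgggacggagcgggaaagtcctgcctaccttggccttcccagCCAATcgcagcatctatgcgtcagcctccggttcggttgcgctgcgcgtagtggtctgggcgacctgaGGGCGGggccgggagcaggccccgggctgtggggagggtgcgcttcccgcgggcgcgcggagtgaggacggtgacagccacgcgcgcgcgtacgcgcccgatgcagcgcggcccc
DRG1 upstream, chr22:31399354-31399603: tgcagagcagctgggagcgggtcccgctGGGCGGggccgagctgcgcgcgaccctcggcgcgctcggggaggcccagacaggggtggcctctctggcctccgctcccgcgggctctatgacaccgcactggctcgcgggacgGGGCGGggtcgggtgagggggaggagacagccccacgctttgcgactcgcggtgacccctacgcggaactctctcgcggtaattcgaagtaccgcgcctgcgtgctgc

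CHEK2 and HSCB, whose starts lie 212 bases apart, differed by 0.79 and 1.08, and 3 CCAAT boxes and 1 GC box stand between them. PITPNB and TTC28-AS1, 120 bases apart, differed by 0.90 and 1.55, and ZMAT5 and UQCR10, 362 bases apart, by 0.71 and 0.61. In HPS4 and SRRD, whose starts are 14 bases apart, both partners lay above 0, but with the widest gap of the 7 pairs, at 0.34 and 1.19. RHBDD3 was higher by 0.89 while EWSR1 stood at 0.05, and the 104 bases between them hold none of these motifs. SF3A1 was higher by 0.62 while CCDC157 stood at -0.05, and their gap holds 1 GC box and 1 ETS match. MORC2 was higher by 0.49, whereas TUG1 lay at -0.31, with 4 GC boxes, 2 CCAAT boxes and 1 E-box in the 250 bases before TUG1.

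The GC box was searched as GGGCGG, the CCAAT box by the letters of its name, and the motif bound by ETS transcription factors as CCGGAAG. The E-box was searched as CACGTG, the TATA box of core promoters as TATAAA, and the cyclic AMP response element as TGACGTCA. Both strands were searched, in windows that run from 250 bases before to 50 after each start. A gene counted as holding a motif if any of its windows did, so genes with several starts had more chances. None of the matches overlapped in the printed sequences. Of the 42 genes of the list with a window, 33 held a GC box, against 48.3% of 27305 genes, 17 a CCAAT box, against 39.7%, and 10 the ETS motif, against 12.2%. The TATA box was found in 2 of the 42 (14.0% of all genes), the E-box in 2 (8.78%) and the cyclic AMP element in 2 (2.25%). Among genes past the filter, a GC box was held by 17 of 20 genes at least 1.5-fold higher and by 14 of the 19 others, and the ETS motif by 6 of 20 and 3 of 19. The 27305 genes are all those with a window, whether or not they were measured here. Their shares are thus not matched to the list, and no trait of the stretch is drawn from them. A match is a string of letters and shows no binding.

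The lists of genes that work with NF2, XBP1, CHEK2 and LIMK2 held differences in both directions. At 1.5-fold, the shares over all genes past the filter were 12.2% higher and 10.5% lower, which belong beside the counts of each list. Among 19 measured genes of the NF2 and Hippo pathway, with NF2 itself counted, 9 lay above 0 and 10 below, with a median of -0.11. At least 1.5-fold higher was 1, AMOTL1, a YAP-binding angiomotin (5.94 on the syk array and 4.70 on the mock array, the mock value at or below 4.77). At least 1.5-fold lower were 3, the transcription factor TEAD2 (5.45 on the syk array and 6.41 on the mock array), the FERM-domain protein FRMD6 (8.69 and 9.36, in the same order) and the coactivator YAP1 (9.02 and 9.63). Of 11 YAP and TEAD target genes, 4 lay above 0 and 7 below, with a median of -0.11. Among them 0 were at least 1.5-fold higher and 3 lower by that much. These were the growth factor gene TGFB2 (6.95 on the syk array and 8.11 on the mock array), CCN2, the secreted connective tissue growth factor (8.30 and 9.29), and the phosphatase PTPN14 (10.2 and 11.1). The ERM proteins, which are close relatives of merlin, all lay below 0 by their brightest probe sets, with MSN at -0.68, RDX at -0.67 and EZR at -0.26. Over all their probe sets MSN ran from -0.68 to -0.05, RDX from -1.03 to 0.06 and EZR from -0.93 to -0.26. Probe sets of AMOTL1 ran from -0.05 to 1.24 and those of YAP1 from -0.64 to 0.04, while those of TEAD2 and FRMD6 all lay below 0.

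The XBP1 and unfolded protein response list was balanced, with 8 of 16 genes above 0 and a median of 0.0038. The chaperone genes DNAJB11 (0.66) and SDF2L1 (0.61) and the stress sensor ERN1, which splices XBP1 mRNA (0.61), were at least 1.5-fold higher. The disulfide isomerase PDIA4 was lower at -0.67. Over all genes the shares were again 12.2% higher and 10.5% lower. The 3 ERN1 probe sets ran from -0.23 to 0.61, and the 2 of PDIA4 from -0.74 to -0.67. SDF2L1 is itself a gene of chromosome 22, towards the centromere. Of 7 measured genes around CHEK2, the phosphatase CDC25A was higher (8.81 on the syk array and 7.76 on the mock array) and the kinase ATM lower (8.54 and 9.45). The 3 CDC25A probe sets ran from 0.62 to 1.46, and the 6 of ATM from -1.08 to 0.33. Of 8 genes around LIMK2 and cofilin, 0 were at least 1.5-fold higher and 1, the cofilin phosphatase SSH3, was lower (7.06 on the syk array and 7.83 on the mock array).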

How the data were processed

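Panc1/syk-wt and Panc1/mock cells were each read on 1 array. The deposited values are log2 intensities made with RMA, per the submitters' processing notes, without version or settings, for 54675 probe sets and with no detection calls. RMA compresses differences between dim probe sets. The members and gene lists were chosen with earlier results of these data known.

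Probe sets with 1 platform symbol (41097) were kept, and 1801 with several were left unnamed. Gene order and promoter windows came from RefSeq (GRCh38.p14), matched by gene ID or symbol, and 42 of 57 genes had a window. Each gene took its probe set of highest mean and passed at a mean of 4.25. The difference syk minus mock was described without a test, at 2-fold and at 1.5-fold. Every gene of the list is given, with the 5 nearest measured genes on each side and up to 4 genes per pathway list. Python 3.11.15 and pandas 2.3.3 were used, and shifts put into simulated data were recovered. The number of arrays limits the precision. Alternatives covered scaling, probe set choice, filters and a floor.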

Additional observations from a re-analysis of the deposited data

How the results depend on the processing

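No paired analysis was possible because each group has 1 array. The median difference of the 22q12 genes was above 0 under every alternative run, at 0.36 with the mean or the median over probe sets, 0.34 unfiltered and 0.70 among genes at or above the 75th percentile. That stricter filter also gave medians of 0.41 (centromere side), 0.39 (telomere side) and 0.32 (other chromosome 22 genes), 3 genes of the list below 0 among 30, and 486 genes of all past 2-fold, from fewer genes tested. With values floored at 4.77, 7 genes of the list lay below 0 and 4 were at least 2-fold higher. At 1.5-fold, 22 genes of the list were higher and 2904 genes of all differed. The other 63 values stayed within 0.1 (medians) or 1.5 times (counts). Dim signal limits what could be seen in the genes below 4.77.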
